A study of Homo sapiens with 96 samples.

Results

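The retained introns (RI) described here belong to human genes with 5 or more distinct introns among the RI events over the 8 deposited rMATS tables in all, where an intron is set by its chromosome, strand, and both ends. This rule gave 934 introns in 148 genes, of 4928 listed introns in 2757 genes. It used no measured level, and 785 of the introns were listed in all 8 tables. Of the rest, 47 were listed in 1 table alone. Genes with exactly 5 listed introns numbered 70, and 144 genes with 4 fell just outside. The question was whether the introns of 1 gene changed together when protein arginine methyltransferases (PRMTs) were inhibited.

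The cells were A549, a lung adenocarcinoma cell line of human origin, and the data were poly(A)-RNA seq from 30 libraries in 10 groups of 3. The treatments were 1 µM GSK591, an inhibitor of the Type II enzyme PRMT5, for 2, 4, or 7 days, or 1 µM MS023, an inhibitor of the Type I PRMTs, for the same times, or 1 µM of each (co-treatment) for 2 or 4 days. Control cells received 0.01% DMSO for 4 or 7 days. The 2-day and 4-day inhibitor groups were both set against DMSO at 4 days, so at 2 days the inhibitor and the difference in time in culture cannot be told apart. The control of the 7-day groups was taken to be DMSO at 7 days. That was inferred, because it is the only DMSO group of that day, and no label states it. All groups are 1 cell line, and nothing in the labels says that the 3 libraries of a group came from separate cultures, so p-values measure the spread between these libraries, which may be technical. The tables counted 3118222 to 5224249 reads per library on RI events. Libraries of the same group differed by 1.88 to 4.72 times the sampling variance, so none was a second deposit of another.

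An intron is removed from the transcript by the spliceosome, which recognizes the 5′ splice site, the branch point, and the 3′ splice site. A transcript that keeps an intron in its poly(A) form is often held in the nucleus or, if exported, degraded. PRMT5 places symmetric dimethylarginine on Sm proteins, which form the core of the spliceosomal small nuclear ribonucleoproteins, and Type I PRMTs place asymmetric dimethylarginine on many RNA-binding proteins. When several introns of a gene are kept, they may sit on the same RNA molecules or on different ones, and counts per intron do not tell these apart. Some listed introns overlap. They share an end and differ in the other through an alternative splice site, or a long form joins 2 outer exons and spans the exon and introns between them.

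Sequences of a few of these introns are printed from GRCh37 (hg19, the build of the deposited coordinates), 5′ to 3′ on the transcribed strand, to show what the values below were measured on. Capitals mark the first 6 bases, which hold the 5′ splice site, and the last 3, which hold the 3′ splice site. The NPRL2 introns are shown because they changed together. The FLII introns, of near-equal length, and the HNRNPH1 introns, of 56 and 92 bases, are shown because introns of 1 gene changed by different amounts. The ATXN2L forms are shown because they share a 5′ end and differ by a few bases at the 3′ end. The GAS5 introns are shown because their direction depended on the inhibitor and the time. The coordinates given with a gene span its listed introns in this build. Introns are numbered along the canonical transcript of the annotation unless said otherwise. All of these lie between exons of the coding region except those of GAS5, which is a non-coding transcript.
NPRL2 intron 2 (chr3:50387265-50387361, minus strand): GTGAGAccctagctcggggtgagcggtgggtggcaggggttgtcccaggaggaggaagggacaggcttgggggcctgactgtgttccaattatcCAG
NPRL2 intron 3 (chr3:50386926-50387095, minus strand): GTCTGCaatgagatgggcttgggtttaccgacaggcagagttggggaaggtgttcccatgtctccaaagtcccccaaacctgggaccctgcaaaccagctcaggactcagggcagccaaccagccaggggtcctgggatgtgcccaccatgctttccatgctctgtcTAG
NPRL2 intron 5 (chr3:50386214-50386304, minus strand): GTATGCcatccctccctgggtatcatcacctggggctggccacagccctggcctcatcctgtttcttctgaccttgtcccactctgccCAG
FLII intron 27 (chr17:18148975-18149057, minus strand): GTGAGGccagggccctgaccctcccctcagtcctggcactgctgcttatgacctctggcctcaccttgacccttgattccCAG
FLII intron 29 (chr17:18148587-18148667, minus strand): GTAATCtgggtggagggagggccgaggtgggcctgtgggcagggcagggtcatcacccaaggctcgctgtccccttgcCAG
HNRNPH1 intron 7 (chr5:179044934-179044989, minus strand): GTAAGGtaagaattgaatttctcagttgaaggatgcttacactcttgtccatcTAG
HNRNPH1 intron 10 (chr5:179043960-179044051, minus strand): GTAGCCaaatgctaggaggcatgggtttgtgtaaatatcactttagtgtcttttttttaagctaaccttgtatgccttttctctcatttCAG
ATXN2L 146-base form (chr16:28846721-28846866, plus strand): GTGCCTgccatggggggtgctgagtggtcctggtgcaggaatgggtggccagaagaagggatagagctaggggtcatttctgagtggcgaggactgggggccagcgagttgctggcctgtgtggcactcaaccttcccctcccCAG
ATXN2L 149-base form (chr16:28846721-28846869, plus strand): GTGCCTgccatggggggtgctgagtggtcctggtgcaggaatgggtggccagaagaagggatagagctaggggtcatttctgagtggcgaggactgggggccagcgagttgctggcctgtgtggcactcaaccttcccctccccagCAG
ATXN2L 155-base form (chr16:28846721-28846875, plus strand): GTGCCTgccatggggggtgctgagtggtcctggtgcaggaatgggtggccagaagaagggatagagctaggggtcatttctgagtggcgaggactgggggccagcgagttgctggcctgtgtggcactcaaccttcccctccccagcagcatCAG
GAS5 intron 9 (chr1:173833645-173833812, minus strand): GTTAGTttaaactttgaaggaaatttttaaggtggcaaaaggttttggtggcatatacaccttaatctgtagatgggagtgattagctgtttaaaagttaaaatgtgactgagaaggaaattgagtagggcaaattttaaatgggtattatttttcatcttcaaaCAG
GAS5 intron 10 (chr1:173833443-173833621, minus strand): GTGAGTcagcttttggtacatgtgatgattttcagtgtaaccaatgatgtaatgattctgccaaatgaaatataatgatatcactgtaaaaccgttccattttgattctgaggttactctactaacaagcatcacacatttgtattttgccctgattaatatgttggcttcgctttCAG

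The 12 introns begin with GT and end with AG, as did 97.2% of the 934 introns against 96.4% of all listed. The base after the GT was G in 49.9% of the members and in 46.3% of all listed introns. Members were somewhat shorter, with a median of 232.5 bases against 260, and had a median GC content of 59.6% against 57.4%. By the annotation, 649 (69.5%) lay between exons of a coding region, 28 in 5′ UTRs, 41 in 3′ UTRs, and 78 in non-coding transcripts, and 138 matched no annotated intron. Chromosome 19 held 20 of the 148 genes and chromosome 17 held 17. Only 487 of the members (52.1%) were introns of the canonical transcript, against 62.6% in genes with 1 to 4 listed introns. Overlap was common, since 679 (72.7%) overlapped another member. When overlapping introns were joined, 468 separate places remained, with a median of 3 per gene and a range of 1 to 8. Thus 16 genes had all their listed introns in 1 such place, and 26 genes had 5 or more separate places. Over all member genes, the most introns listed in 1 place was 13.

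The level of inclusion (Ψ) is the share of transcripts that keep the intron, computed from reads that include it and reads that splice it out, each divided by the effective length. ΔΨ is Ψ with the inhibitor minus Ψ with DMSO. Canonical introns and the others had very different levels. Of the introns tested with GSK591 at 2 days, the canonical ones had a median Ψ of 0.0917 in DMSO and the others 0.931. For a form that is rarely used, almost all reads at the place count as inclusion, and for a long form that spans an exon the reads of that exon count as inclusion too, so a Ψ near 1 there does not mean that an intron is kept in most transcripts. A change in such a form can reflect the exon or the competing splice site as well as the intron.

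**Figure D1:**
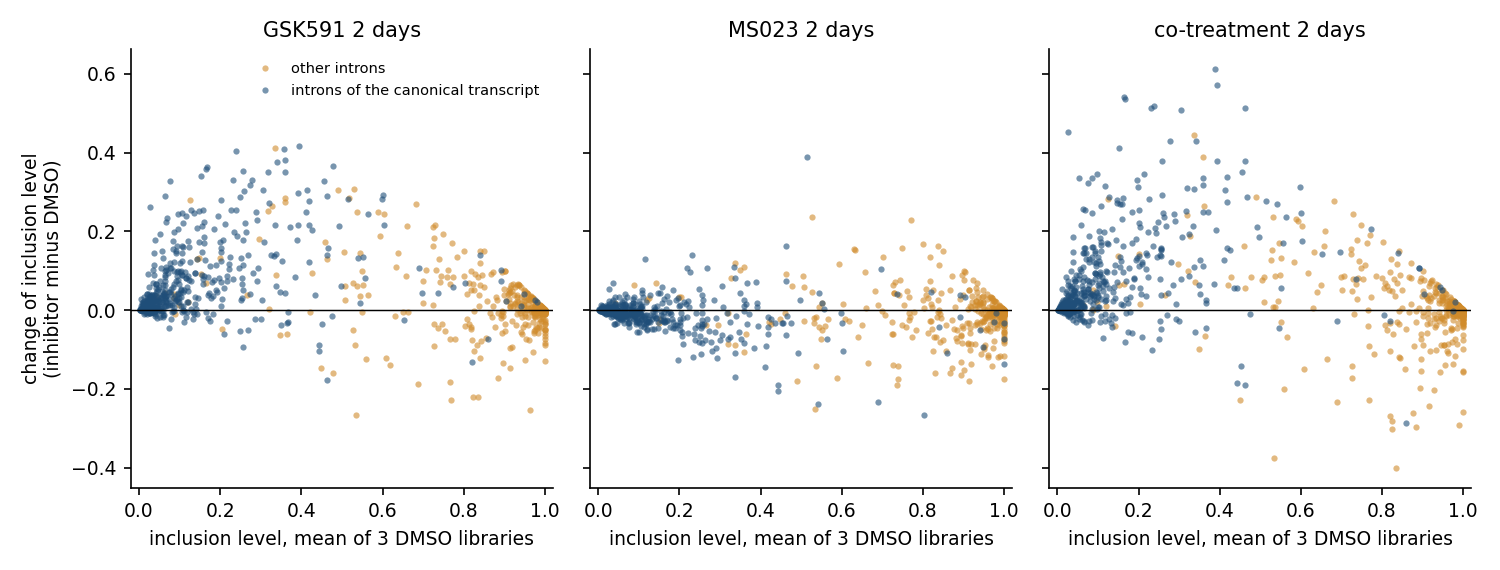
Each point is an intron of a gene with 5 or more listed introns, with mean Ψ in DMSO at 4 days on the x axis and ΔΨ on the y axis, for GSK591, MS023, and co-treatment at 2 days; blue points are introns of the canonical transcript and orange points the other forms. Canonical introns lie mostly at low Ψ (median 0.0917) and move upward with GSK591 and co-treatment, whereas the other forms lie near 1 (median 0.931) and mostly stay near 0 on the y axis.

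With GSK591 at 2 days, 238 of 803 tested member introns (29.6%) rose and 11 (1.37%) fell, and the median ΔΨ was 0.0223. An intron was tested where all 6 libraries had at least 10 reads, and was said to rise or fall where a quasi-binomial test across libraries gave an adjusted p under 0.05 over all RI tested. Over all genes 24% of tested introns rose and 2.38% fell, with a median ΔΨ of 0.0150. The other 131 members were not tested in this comparison. Just inside and just outside the limit the share that rose was alike, at 26.6% in genes with exactly 5 listed introns and 26.3% in genes with exactly 4. The share that fell was not, at 0.332% and 2.34%. At 4 days of GSK591 38.3% and 34.4% rose in these 2 classes.

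At 4 days of GSK591, 316 of 812 members (38.9%) rose and 33 (4.06%) fell, against 33.9% and 4.32% of all introns. At 7 days, 209 of 795 (26.3%) rose and 49 (6.16%) fell, against 21.8% and 6.1%. Co-treatment raised 264 of 817 (32.3%) and lowered 42 (5.14%) at 2 days, against 29.7% and 5.03% of all introns. At 4 days of co-treatment it raised 296 of 821 (36.1%) and lowered 59 (7.19%), against 33.6% and 6.1%. In these 5 comparisons the share of members that rose was above that of all introns, by the most with GSK591 at 2 days.

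MS023 went the other way and changed fewer introns. At 2 days, 9 of 815 members (1.10%) rose and 49 (6.01%) fell, against 1.44% and 4.21% of all introns. At 4 days, 9 of 805 (1.12%) rose and 55 (6.83%) fell, against 1.57% and 5.6%, and at 7 days 15 of 804 (1.87%) rose and 99 (12.3%) fell, against 1.93% and 9.49%. The median ΔΨ of the members was -0.00598, -0.00672, and -0.00859 at 2, 4, and 7 days. These calls rest on the test used. With limma on log2 odds, 0 member introns were called with MS023 at any time, although 103, 133, and 151 had an unadjusted p under 0.05, and leaving out 1 library of either group left 1 to 5, 3 to 10, and 6 to 29 calls. The individual MS023 values below should be read with this in mind.

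DMSO at 7 days against DMSO at 4 days gave the background of time in culture. Of 808 member introns, 5 rose and 5 fell (1.24%), against 1.28% of all introns called in either direction. The median difference was -0.00189.

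The difference between canonical and other introns ran through every comparison with GSK591. At 2 days, 206 of 455 canonical introns of these genes (45.3%) rose against 32 of 348 others (9.20%). The same shares were 58.6% and 13.1% at 4 days and 39.5% and 8.31% at 7 days. For co-treatment they were 51.4% and 8.06% at 2 days and 54.7% and 12.4% at 4 days. With MS023, 8.30% of canonical and 3.08% of other introns fell at 2 days, and 18.0% and 4.65% at 7 days. The other introns lay near the upper limit of Ψ in DMSO, with a median of 0.931 against 0.0917 among those tested with GSK591 at 2 days. They also had fewer reads there, with a median of 1164 against 2215. The part of level and reads in these shares was not tested.

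Compared within the canonical introns alone, genes with many listed introns stood further apart from the rest. At 2 days of GSK591, 45.3% of canonical introns rose in genes with 5 or more listed introns, 34.1% in genes with 2 to 4, and 25.2% in genes with 1, against 33.0% of canonical introns of all genes. The same order was seen at 4 days (58.6%, 45.9%, and 38.8%) and at 7 days (39.5%, 28.1%, and 23.6%), and with co-treatment at 2 days (51.4%, 43.0%, and 34.6%) and 4 days (54.7%, 45.4%, and 40.2%). The share that fell with MS023 was also highest in these genes, at 8.30% against 4.22% and 4.68% at 2 days and at 18.0% against 12.2% and 8.44% at 7 days. Reads moved with this order, since the median count per canonical intron was 2215, 1687, and 1642.5 in the 3 classes, and so did Ψ in DMSO, at 0.0917, 0.0772, and 0.0510. Their part in the order of the shares was not tested.

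**Figure D2:**
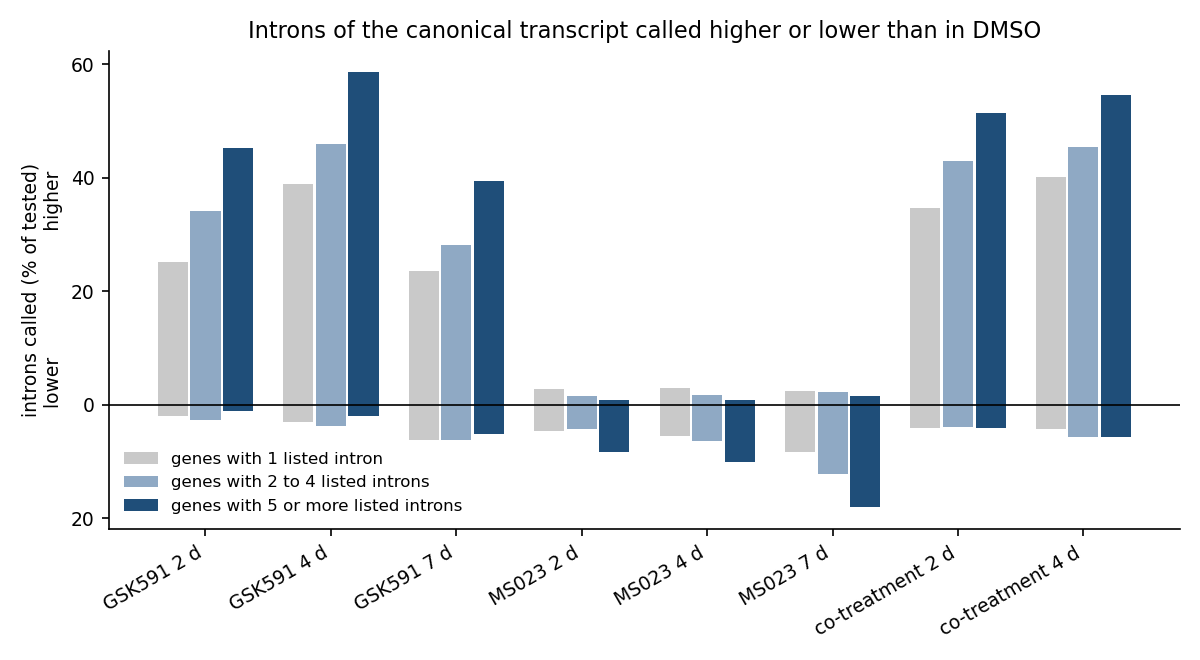
Bars give the percent of tested canonical introns that rose (upward) or fell (downward) in each of the 8 comparisons, for genes with 5 or more, 2 to 4, and 1 listed intron. With GSK591 at 2 days the upward bars reach 45.3%, 34.1%, and 25.2%, and in the 3 MS023 comparisons the downward bars are the longer ones.

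Introns of 1 gene shared their direction a little more often than introns of different genes. For this count only introns that do not overlap each other were kept, taken in order of reads, and the sign of ΔΨ was compared in pairs, called or not. With GSK591 at 2 days, 69.9% of pairs within a gene had the same sign (mean over 130 genes), against 65.8% of pairs between genes, which is high by itself because most introns moved upward. The shares were 72.2% against 65.4% at 4 days, 67.1% against 60.8% at 7 days, and 68.4% against 65.4% and 69.2% against 62.1% with co-treatment at 2 and 4 days. With MS023 they were 58.0% against 55.2%, 62.4% against 57.4%, and 63.5% against 60.1% at 2, 4, and 7 days, and between the DMSO groups 51.3% against 50.5%. No test was made of these shares, because all pairs share the same 6 libraries. Taking each inhibitor library alone against the mean of DMSO, the share within genes was above that between genes in 23 of 24 libraries, with a difference from -1.49 to 7.67 percentage points, and the exception was a library of MS023 at 2 days.

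With GSK591 and co-treatment, canonical introns shared their sign more often than the full set, both within and between genes. Among canonical introns alone, 75.4%, 78.7%, and 70.7% of pairs within a gene had the same sign with GSK591 at 2, 4, and 7 days, against 72.4%, 72.1%, and 64.8% between genes. With MS023 at 2 days canonical introns did so less often than the full set, at 57.6% within and 54.0% between genes against 58.0% and 55.2%. Their share between genes was also lower than that of the full set with MS023 at 4 and 7 days. By distance, 79.4% of pairs under 500 bases apart had the same sign with GSK591 at 2 days, 72.3% of pairs 500 to 2000 bases apart, and 66.1% of pairs further apart. The share was higher under 500 bases than over 2000 bases in all 8 comparisons, by the least with GSK591 at 4 days (73.3% against 71.4%), and also between the DMSO groups (59.4% against 49%). Pairs over 2000 bases apart had the same sign more often than pairs between genes in all 8 comparisons. The gap was widest with GSK591 at 4 days (71.4% against 65.4%) and narrowest with GSK591 at 2 days (66.1% against 65.8%). Between the DMSO groups the order was reversed (49% against 50.5%). When introns of a gene within 500 bases of another were left out, the shares within and between genes were 64.1% and 62.9% with GSK591 at 2 days and 71.6% and 64.2% at 4 days. Pairs that overlap had the same sign less often with GSK591 at 2 days, at 52.1% of 536 overlapping pairs. The share for overlapping pairs was 50.9% to 63.0% over the 8 comparisons. It was highest with MS023 at 2 days, where it was above the 58.2% of separate pairs pooled over genes. How many reads close introns shared was not tested.

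**Figure D3:**
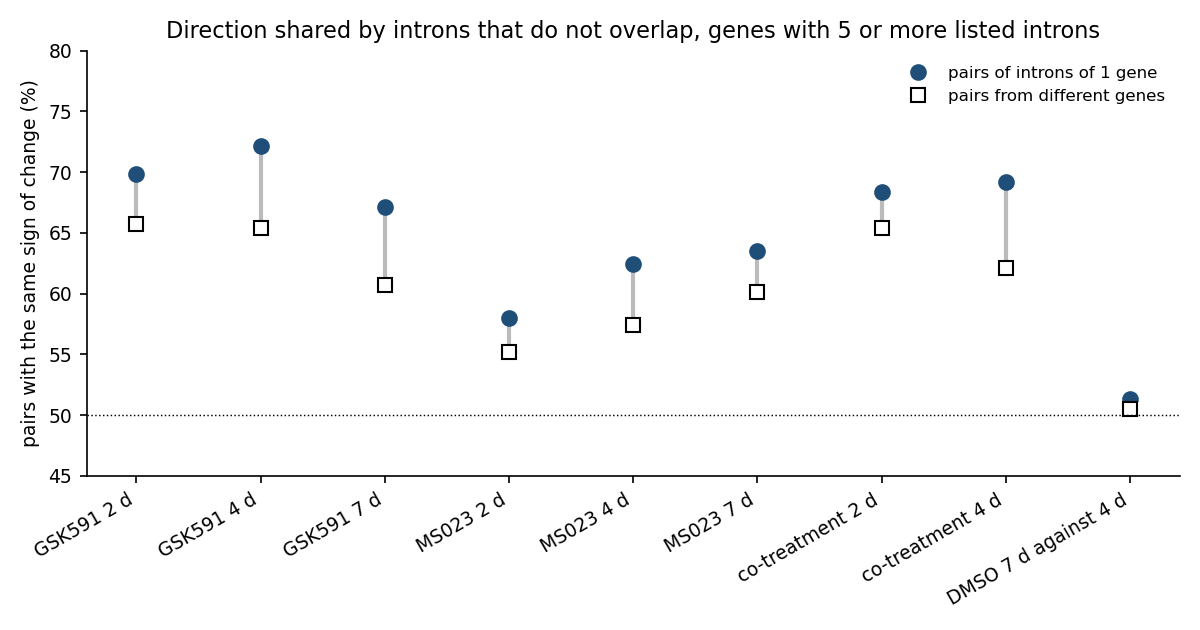
Filled circles give the percent of pairs of introns within a gene whose ΔΨ had the same sign (mean over genes) and open squares the percent of pairs between genes, for the 8 comparisons and for DMSO at 7 against 4 days; the dotted line is 50%. The circles lie above the squares in all 9, at 69.9% against 65.8% with GSK591 at 2 days and at 51.3% against 50.5% between the DMSO groups.

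Whole genes were then counted by direction over the same sets of introns that do not overlap, in order of reads. With GSK591 at 2 days, of 130 genes with at least 2 separate introns tested, all introns had a positive ΔΨ in 64 (49.2%) and all a negative ΔΨ in 3, against 54.2% and 7.31% of all 629 such genes, which had fewer introns each (a mean of 2.58 against 3.67). MS023 at 2 days gave 7 and 37 of 132 genes (5.30% and 28.0%), against 13.5% and 33.4% of all such genes. The DMSO groups gave 11 and 22 (8.33% and 16.7%), against 17.8% and 24.6%. At least 2 introns of the set were called with GSK591 at 2 days in 59 genes. All calls were upward in 53 of them (89.8%), downward in 1, and in both directions in 5 (8.47%). Of all genes with at least 2 calls, 90% were upward and 8% in both directions. The 1 downward gene was SIRT7, whose set left out 2 canonical introns that rose. The 5 with both directions were PRPF4B, a kinase of the spliceosome, ANKZF1, ATXN2L, GNB2L1, and AP1G2, chosen by this count. At 4 days of GSK591 the numbers were 74 upward, 2 downward, and 8 both of 84 genes, and at 7 days 39, 3, and 10 of 52. Upward and both made 88.1% and 9.52% at 4 days, against 85.7% and 12.6% of all genes with at least 2 calls. At 7 days they made 75% and 19.2%, against 74.0% and 21.2%. With co-treatment 55, 2, and 11 of 68 genes were found at 2 days and 61, 2, and 16 of 79 at 4 days. Upward and both made 80.9% and 16.2% at 2 days, against 84.6% and 13.0% of all such genes. At 4 days they made 77.2% and 20.3%, against 79.6% and 17.4%. MS023 gave 0, 6, and 1 of 7 genes at 2 days, 0, 8, and 0 of 8 at 4 days, and 0, 17, and 4 of 21 at 7 days. Downward and both made 85.7% and 14.3% at 2 days, against 80% and 13.3% of all such genes. At 4 days they made 100% and 0%, against 84.2% and 5.26%. At 7 days they made 81.0% and 19.0%, against 89.8% and 8.16%.

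The choice of introns bears on these counts. When every tested intron was taken, overlapping forms included, 8, 24, and 22 genes held calls in both directions with GSK591 at 2, 4, and 7 days, and 25 and 35 with co-treatment at 2 and 4 days. MS023 gave 3, 1, and 8. In 6, 18, and 20 of the genes with GSK591 and in 20 and 29 with co-treatment, opposite calls lay on introns that do not overlap each other. These counts were not made over all genes.

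A shared direction did not mean an equal change. A test of whether the introns of a gene differ in their change of log odds was met by 47 of 130 genes (36.2%) with GSK591 at 2 days, by 58 of 131 (44.3%) at 4 days, and by 53 of 132 (40.2%) at 7 days. Over all genes with at least 2 separate introns tested, 19.4%, 32.2%, and 26.3% met it. All such genes had fewer separate introns each, with a mean of 2.58 against 3.67 with GSK591 at 2 days, and the part of this in the shares was not tested. The numbers of member genes that met the test were 48 of 132 (36.4%) and 69 of 133 (51.9%) with co-treatment at 2 and 4 days, against 24.6% and 36.6% over all genes. MS023 gave 6 of 132 (4.55%), 11 of 132 (8.33%), and 11 of 133 (8.27%), against 1.72%, 3.58%, and 3.34%. Between the DMSO groups 22 of 130 genes (16.9%) met it, against 8.45% over all genes, which is more than with MS023 at any time.

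The mean over the introns of a gene rose in 31 of 143 genes with GSK591 at 2 days by limma on the log2 odds, against a shift in 17.2% of all genes, and fell in 0. At 4 days 71 rose and 4 fell, and at 7 days 30 rose and 4 fell, against 33.4% and 18.4% of all genes. Co-treatment moved 49 genes at 2 days (46 upward) and 71 at 4 days (64 upward), against 27% and 33.4% of all genes. MS023 moved 0 of these genes at any time by this test, with 16, 25, and 35 at an unadjusted p under 0.05, against 0.0449%, 0.448%, and 1.5% of all genes. Between the DMSO groups the shift was called in 0 member genes, with 20 at an unadjusted p under 0.05, and in 0% of all genes.

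**Figure D4:**
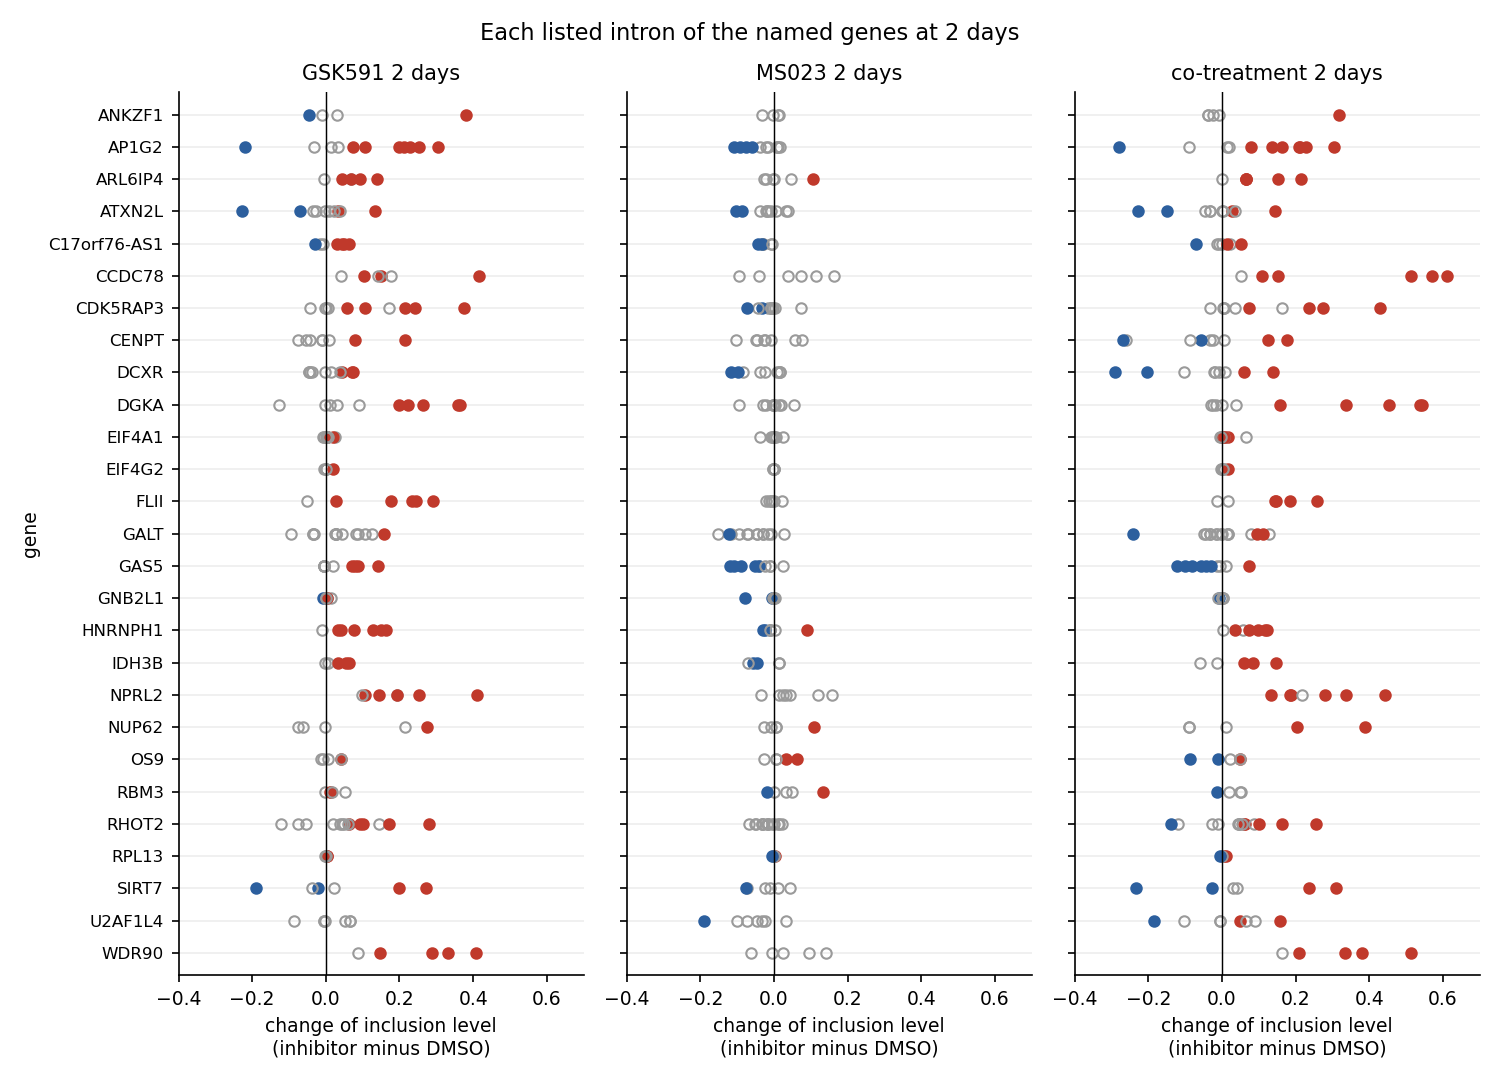
Each row is a gene and each point a tested intron, with ΔΨ on the x axis, for GSK591, MS023, and co-treatment at 2 days; filled red points rose, filled blue points fell, and open grey points did not pass the test. The points of NPRL2 and CCDC78 all lie to the right of 0 with GSK591, while AP1G2, SIRT7, and ATXN2L hold red and blue points together.

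NPRL2 (chr3:50385333-50387361, minus strand), a subunit of the GATOR1 complex that restrains mTORC1, held introns that rose together. It had 9 listed introns and 7 tested with GSK591 at 2 days, of which 5 rose and 2 others had positive ΔΨ without passing the test. Its intron 2 had a Ψ of 0.0358, 0.0486, and 0.0728 in the DMSO libraries and of 0.242, 0.341, and 0.157 with GSK591 (quasi-binomial adjusted p = 0.00359). The groups did not overlap, and the lowest GSK591 library was more than 2 times the highest DMSO library. Intron 5 went from 0.00582, 0.0563, and 0.0498 to 0.163, 0.180, and 0.205 (adjusted p = 0.00245 by the same test), again without overlap. Its intron 6 had the smallest ΔΨ of the gene, 0.0970, and missed the threshold at an adjusted p of 0.0556.

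The mean of the 5 separate NPRL2 introns rose by 1.94 ± 0.38 (SE) on the log2 odds scale with GSK591 at 2 days (limma adjusted p = 0.0164), and the test for a difference among them was not met (adjusted p = 0.480). With co-treatment the rise was 2.45 ± 0.38 at 2 days (limma adjusted p = 0.00606), with 6 of 7 introns called. At 4 days of GSK591 all 7 tested introns rose. The NPRL2 introns had 167 to 844 reads over the 6 libraries with GSK591 at 2 days, which leaves wide errors per intron. With MS023 at 2 days no NPRL2 intron was called, and the mean shift was 0.36 ± 0.34 (limma adjusted p = 0.685). Between the DMSO groups NPRL2 had a shift of 0.93 ± 0.34 that was not called (limma adjusted p = 0.220).

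FLII (chr17:18148587-18160437, minus strand), an actin-binding protein of the gelsolin family, rose over most of its listed introns, but by very different amounts. Intron 7 had the largest change, from 0.0697, 0.0599, and 0.0613 to 0.373, 0.361, and 0.328 with GSK591 at 2 days (quasi-binomial adjusted p = 7.08e-10). Its intron 27 went from 0.0764, 0.0783, and 0.0534 to 0.270, 0.299, and 0.340 (adjusted p = 6.69e-08). The last intron, 29, which is 81 bases long against 83 for intron 27, went from 0.0432, 0.0333, and 0.0473 to 0.0557, 0.0715, and 0.0785 (adjusted p = 0.0331). All 3 introns rose without overlap between groups, yet ΔΨ was 0.290, 0.234, and 0.0273. The mean of 5 separate introns rose by 2.26 ± 0.20 on the log2 odds scale (limma adjusted p = 0.00226), and the introns differed from each other (interaction F = 12.3, adjusted p = 0.000135). Intron 29 also had a small ΔΨ at 7 days, 0.0350 against 0.290 for intron 7 and 0.293 for intron 26, and with co-treatment at 4 days, when its ΔΨ of 0.0137 was not called.

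HNRNPH1 (chr5:179043220-179050636, minus strand), an RNA-binding protein that binds runs of G and regulates splicing, behaved in a like way. Of 7 tested introns 6 rose with GSK591 at 2, 4, and 7 days, and 5 and 6 with co-treatment at 2 and 4 days. Its intron 10 went from 0.102, 0.112, and 0.102 to 0.247, 0.278, and 0.282 with GSK591 at 2 days (quasi-binomial adjusted p = 1.77e-09). The 56-base intron 7 went from 0.0536, 0.0484, and 0.0250 to 0.0590, 0.0961, and 0.0992 (adjusted p = 0.00348), so that its lowest GSK591 library was only just above the highest DMSO library. An intron of the 5′ UTR, which is not canonical, had a ΔΨ of -0.0110 and was not called (adjusted p = 0.426). The mean shift was 1.00 ± 0.18 on the log2 odds scale (limma adjusted p = 0.0128), with a difference among introns (interaction adjusted p = 8.87e-05). MS023 at 2 days lowered introns 3 and 10 and raised a non-canonical 802-base form that ends in the 3′ UTR, from 0.438, 0.520, and 0.429 to 0.569, 0.559, and 0.532 (quasi-binomial adjusted p = 0.0274).

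CCDC78 (chr16:773019-775236, minus strand) and WDR90 (chr16:703804-716672, plus strand), which both act at centrioles, and CDK5RAP3 (chr17:46048519-46058952, plus strand), a cofactor of protein UFMylation, also held several introns with large rises. CCDC78 intron 5 went from 0.400, 0.282, and 0.501 to 0.823, 0.80, and 0.806 with GSK591 at 2 days (quasi-binomial adjusted p = 6.54e-05). With co-treatment at 2 days its intron 11 had a Ψ of 1.00 in all 3 libraries against 0.373, 0.535, and 0.257 in DMSO (adjusted p = 1.05e-06), meaning that no spliced read was counted. The mean over 5 CCDC78 introns rose by 2.15 ± 0.34 on the log2 odds scale with GSK591 and by 4.35 ± 0.37 with co-treatment at 2 days (limma adjusted p = 0.00938 and 0.00130), and at 4 days of co-treatment 6 of 6 introns were called. The CCDC78 introns had 426 to 1201 reads in all 6 libraries together with GSK591 at 2 days, and the 6-library totals limit the precision near a Ψ of 1.

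WDR90 intron 17 went from 0.380, 0.387, and 0.308 to 0.775, 0.731, and 0.795 with GSK591 at 2 days (quasi-binomial adjusted p = 0.000299). Its 4 separate introns rose by 1.89 ± 0.33 on the log2 odds scale on average (limma adjusted p = 0.0115), and 0.87 ± 0.31 was found between the DMSO groups (limma adjusted p = 0.204). At 7 days of GSK591 intron 17 had a ΔΨ of 0.0408 and was not called, while introns 13 and 14 rose by 0.345 and 0.428. CDK5RAP3 intron 1 went from 0.405, 0.317, and 0.30 to 0.736, 0.666, and 0.747 with GSK591 at 2 days (quasi-binomial adjusted p = 7.08e-07). Its intron 3 changed less, from 0.0688, 0.102, and 0.0593 to 0.142, 0.179, and 0.231 (adjusted p = 0.000339). The 5 separate introns of CDK5RAP3 differed in their change (interaction adjusted p = 0.0133) and rose by 1.27 ± 0.23 on average (limma adjusted p = 0.0129).

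In DGKA (chr12:56332774-56347468, plus strand), a diacylglycerol kinase with 13 listed introns, the changed introns sat together. Introns 7, 9, 10, 11, and 13 of its canonical transcript rose with GSK591 at 2 days, with ΔΨ of 0.222, 0.358, 0.364, 0.263, and 0.199, and introns 16, 18, 20, and 23 were not called, with ΔΨ of -0.00304, 0.0900, 0.0315, and 0.0106. Intron 11 went from 0.0361, 0.0421, and 0 to 0.397, 0.299, and 0.170 (quasi-binomial adjusted p = 0.00114). Intron 23, the last, stayed at 0.0739, 0.0997, and 0.0264 against 0.0651, 0.0658, and 0.101 (adjusted p = 0.892). These were the same introns that co-treatment raised at 2 and 4 days, with intron 9 at a ΔΨ of 0.542 and 0.465. The test for a difference among the DGKA introns was met with GSK591 at 4 days (adjusted p = 0.000110) and with co-treatment at 2 days (adjusted p = 0.000411), and not with GSK591 at 2 days (adjusted p = 0.241). DGKA introns had 229 to 494 reads over the 6 libraries with GSK591 at 2 days.

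RHOT2 (chr16:718412-722702, plus strand), a mitochondrial GTPase with 15 listed introns, changed most in intron 16, which went from 0.174, 0.166, and 0.266 to 0.499, 0.482, and 0.468 with GSK591 at 2 days (quasi-binomial adjusted p = 2.03e-06), and introns 15, 13, and 3 rose by 0.171, 0.102, and 0.0942. Intron 2 had a ΔΨ of 0.0208 and was not called. The 318-base form that spans introns 15 and 16 with the exon between them had a ΔΨ of -0.0745 at 2 days, which was not called, and fell by 0.116 at 4 days. Among 61 genes with 4 or more separate introns tested with GSK591 at 2 days, the largest absolute change of log odds fell on the first intron in 13 and on the last in 4, where even odds over the introns give 13.1 for either end. It fell on the last intron in 10 of 63 genes at 4 days and in 13 of 60 at 7 days, where even odds give 13.7 and 12.8.

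**Figure D5:**
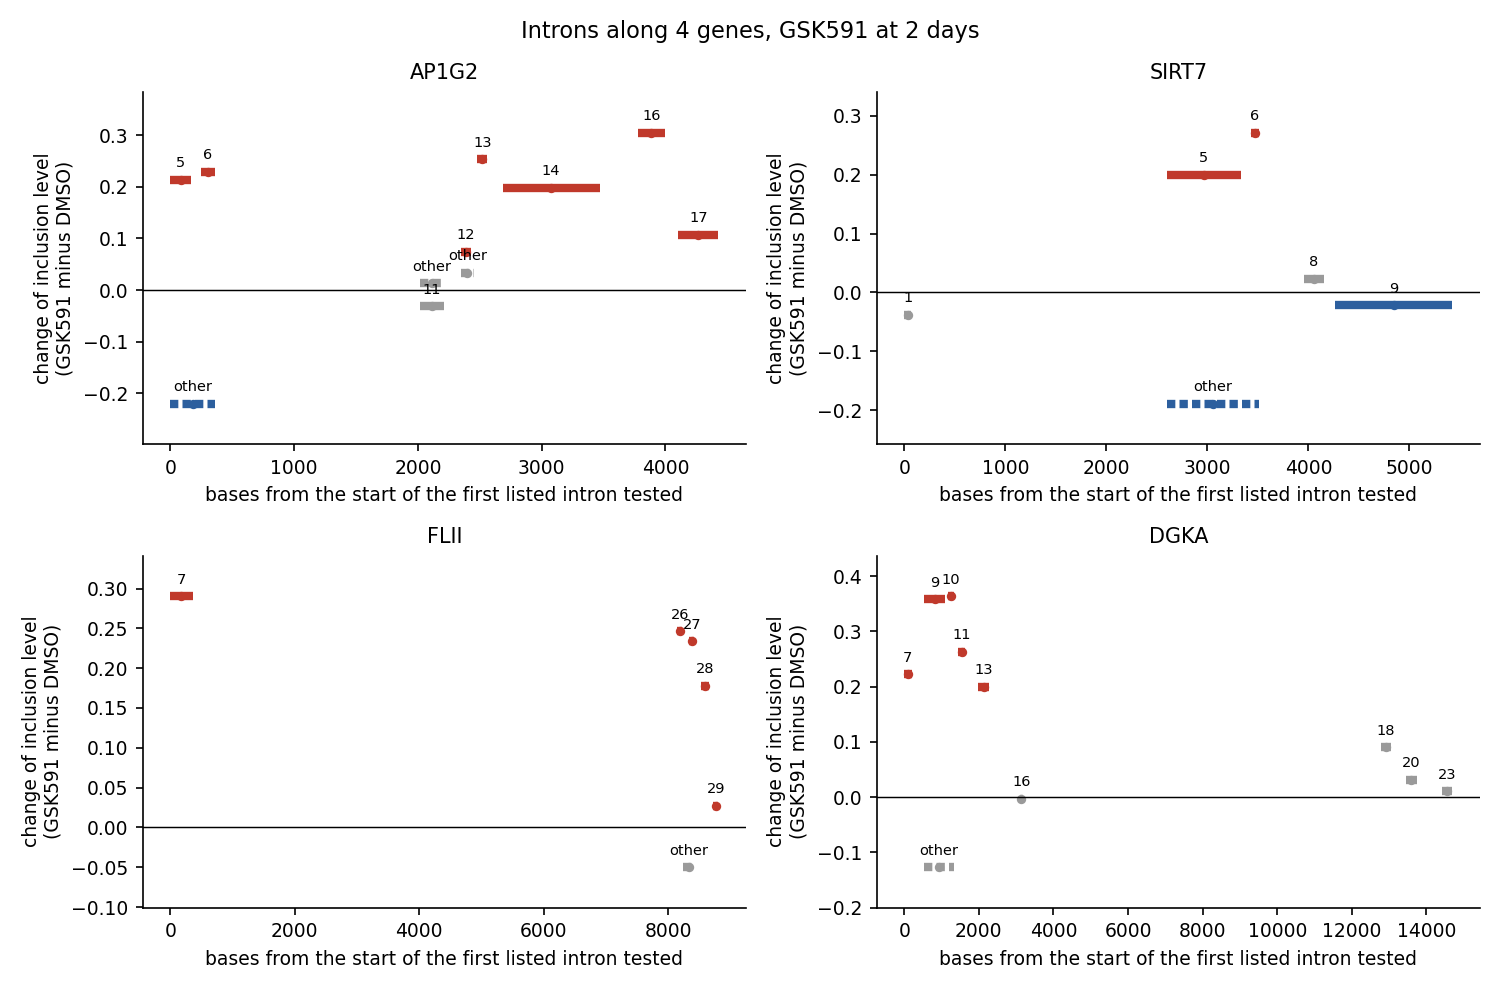
Each horizontal line is a tested intron, placed by bases from the start of the first listed intron in the direction of transcription (x axis) and by ΔΨ with GSK591 at 2 days (y axis), in AP1G2, SIRT7, FLII, and DGKA; solid lines are canonical introns with their numbers and dashed lines other forms, in red where they rose, blue where they fell, and grey where not called. The dashed form over AP1G2 introns 5 and 6 lies at -0.220 and that over SIRT7 introns 5 and 6 at -0.189, below the canonical introns that they span, and the canonical DGKA introns from 16 on lie between -0.00304 and 0.0900.

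AP1G2 (chr14:24030845-24035272, minus strand), the gamma-2 subunit of the clathrin adaptor AP-1, held called introns in both directions. Of 11 introns tested with GSK591 at 2 days, 7 canonical introns rose and the 362-base form over introns 5 and 6 fell. Intron 16 went from 0.409, 0.434, and 0.398 to 0.715, 0.672, and 0.767 (quasi-binomial adjusted p = 9.25e-06). Intron 5 went from 0.505, 0.522, and 0.450 to 0.694, 0.660, and 0.763 and intron 6 from 0.319, 0.302, and 0.248 to 0.509, 0.463, and 0.582. The spanning form, whose splicing leaves out the exon between these introns, went the other way, from 0.793, 0.848, and 0.829 to 0.509, 0.656, and 0.644 (adjusted p = 0.00312). Thus relative to reads that include the region, splicing of each canonical intron was lower and joining of the outer exons was higher.

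The separate introns of AP1G2 differed with GSK591 at 2 days (interaction F = 15.0, adjusted p = 1.46e-06), and the set included the spanning form, because it had the most reads there. Between the DMSO groups, where the set held introns 5 and 6 in place of that form, the test was also met (interaction F = 3.60, adjusted p = 0.0480). Intron 11 of the same gene, at 0.378, 0.398, and 0.321 in DMSO, was not called at 2 days (ΔΨ of -0.0316) and fell by 0.158 at 7 days. With MS023 at 2 days, 4 canonical introns of AP1G2 fell, and intron 5 went from 0.505, 0.522, and 0.450 to 0.345, 0.444, and 0.364 (quasi-binomial adjusted p = 0.0321). At 7 days of MS023 introns 5, 6, 13, 14, and 16 fell, and the spanning form and intron 11 rose by 0.114 and 0.0956. All 3 inhibitor groups at 2 days share the same DMSO libraries.

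SIRT7 (chr17:79870491-79875914, minus strand), a nucleolar deacylase of the sirtuin family, had the same arrangement. With GSK591 at 2 days its intron 5 went from 0.267, 0.292, and 0.232 to 0.458, 0.494, and 0.436 (quasi-binomial adjusted p = 2.48e-05) and its intron 6 from 0.339, 0.323, and 0.297 to 0.601, 0.585, and 0.585 (adjusted p = 1.19e-05). The unannotated 909-base form over both went from 0.646, 0.70, and 0.720 to 0.502, 0.522, and 0.477 (adjusted p = 0.00197). The last intron, 9, went from 0.0850, 0.0729, and 0.0757 to 0.0480, 0.0549, and 0.0653 (adjusted p = 0.0192), so 1 gene held canonical introns in both directions. Introns 1 and 8 were not called. SIRT7 is not among the 5 genes with both directions counted above, because the spanning form had more reads than introns 5 and 6 and took their place in the set. For the same reason it was counted there as the 1 gene with all calls downward.

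DCXR (chr17:79994185-79995325, minus strand), a carbonyl reductase, showed this arrangement with co-treatment. At 2 days of co-treatment DCXR intron 5 rose from 0.204, 0.208, and 0.195 to 0.360, 0.293, and 0.367 (quasi-binomial adjusted p = 6.96e-05). The unannotated 412-base form that runs from intron 4 to intron 6 fell from 0.968, 1.00, and 1.00 to 0.679, 0.657, and 0.759 (adjusted p = 2.24e-05). With GSK591 alone at 2 days that form had a ΔΨ of -0.0463 and was not called. DCXR intron 2 rose by 0.0741 with GSK591 at 2 days, fell by 0.0973 with MS023, and had a ΔΨ of -0.0212 with co-treatment that was not called. In CENPT, co-treatment at 2 days raised introns 10 and 11 by 0.126 and 0.176 and lowered intron 5 and a 100-base form at the same place by 0.0575 and 0.268.

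ATXN2L (chr16:28846721-28848071, plus strand), an RNA-binding protein of stress granules, had 3 forms with 1 common 5′ end, whose sequences are printed above and whose 3′ ends lie at AGs within 9 bases. The 149-base form is canonical and went from 0.0561, 0.0505, and 0.0361 to 0.0702, 0.0900, and 0.0815 with GSK591 at 2 days (quasi-binomial adjusted p = 0.0103). The 146-base form went from 0.225, 0.199, and 0.177 to 0.338, 0.303, and 0.359 (adjusted p = 0.00944). The 155-base form, at 0.899 in DMSO, had a ΔΨ of 0.0391 and was not called. These 3 share the same intronic reads and differ in the reads that splice them out.

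At the 3′ end of ATXN2L the 605-base form of the last intron went from 0.773, 0.807, and 0.724 to 0.601, 0.530, and 0.487 (quasi-binomial adjusted p = 3.38e-05), and a 628-base form with the same 5′ end fell by 0.0703. The 605-base form also fell with GSK591 at 4 and 7 days and with co-treatment at 2 and 4 days, with ΔΨ of -0.197, -0.253, -0.228, and -0.217. Together with the 149-base intron it gave the largest interaction F of the member genes with GSK591 at 2 days (F = 46.0, interaction adjusted p = 8.48e-05), and the mean over both had a shift of -0.34 ± 0.22 that was not called (limma adjusted p = 0.316). With MS023 at 2 days the 605-base form had a ΔΨ of -0.0170 and was not called, while 326-base and 242-base forms at that place fell by 0.0861 and 0.103.

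ANKZF1 (chr2:220097914-220101043, plus strand), which releases nascent chains from stalled ribosomes, had opposite changes in 2 canonical introns. Intron 9 went from 0.379, 0.422, and 0.279 to 0.660, 0.724, and 0.840 with GSK591 at 2 days (quasi-binomial adjusted p = 0.000205). Intron 13 went from 0.0802, 0.0929, and 0.0498 to 0.0317, 0.0310, and 0.0237 (adjusted p = 0.0451). The 2 introns kept these directions at 4 days (ΔΨ of 0.462 and -0.0488) and 7 days (0.421 and -0.0329). With co-treatment intron 9 rose by 0.319 and 0.399 at 2 and 4 days, and intron 13 had a ΔΨ of -0.0368 at 2 days that was not called and fell by 0.0429 at 4 days. GALT (chr9:34647256-34648994, plus strand), an enzyme of galactose metabolism, had the most listed introns, 16, over 3 separate places with GSK591 at 2 days, and there only intron 8 was called, from 0.263, 0.145, and 0.197 to 0.475, 0.312, and 0.295 (quasi-binomial adjusted p = 0.0313).

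Genes with many reads allowed small changes to be called. EIF4A1 (chr17:7477627-7481544, plus strand), the RNA helicase of the cap-binding complex, had 53366 to 85149 reads on its 4 canonical introns over the 6 libraries with GSK591 at 2 days. Intron 8 went from 0.0130, 0.0126, and 0.0131 to 0.0315, 0.0324, and 0.0324 (quasi-binomial adjusted p = 3.11e-09), whereas intron 2 went from 0.00277, 0.00413, and 0.00440 to 0.00458, 0.00660, and 0.00646 (adjusted p = 0.0295). The introns differed (interaction F = 41.8, adjusted p = 1.20e-07), and the same test was met between the DMSO groups (interaction F = 7.35, adjusted p = 0.0213). EIF4G2 (chr11:10821157-10826459, minus strand), a translation factor that works without the cap-binding protein, changed in 1 of 5 tested introns at 2 days, with intron 8 going from 0.0111, 0.00880, and 0.0102 to 0.0301, 0.0331, and 0.0285 (adjusted p = 1.19e-07 by the quasi-binomial test).

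In OS9 (chr12:58089760-58113881, plus strand), a lectin of the endoplasmic reticulum, the inhibitors raised different introns. GSK591 at 2 days raised intron 4 from 0.0269, 0.0188, and 0.0287 to 0.0592, 0.0570, and 0.0792 (quasi-binomial adjusted p = 0.000111), and intron 6 had a ΔΨ of 0.00620 and was not called. MS023 at 2 days raised intron 6 from 0.0405, 0.0445, and 0.0419 to 0.0719, 0.0871, and 0.0697 (adjusted p = 0.0203), and intron 4 had a ΔΨ of 0.00538 and was not called. Whether the 2 inhibitors differ on either intron was not tested. MS023 also raised OS9 intron 6 at 4 and 7 days, by 0.0372 and 0.0348.

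Some rises with MS023 lay in forms outside the canonical transcript. In RBM3 (chrX:48434019-48434701, plus strand), a cold-induced RNA-binding protein, MS023 at 2 days lowered the canonical intron 3 from 0.0493, 0.0549, and 0.0436 to 0.0309, 0.0387, and 0.0232 (quasi-binomial adjusted p = 8.38e-05) and raised a 230-base form inside it from 0.692, 0.693, and 0.717 to 0.861, 0.835, and 0.809 (adjusted p = 0.0127). In NUP62 (chr19:50412003-50432673, minus strand), a nuclear pore protein, a 1477-base form of the first intron in the 5′ UTR went from 0.369, 0.365, and 0.347 to 0.456, 0.461, and 0.492 with MS023 and to 0.769, 0.626, and 0.512 with GSK591 at 2 days. That form also fell between the DMSO groups, by 0.160 from 4 to 7 days, so its level also differed between the times in DMSO.

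U2AF1L4 (chr19:36233705-36236025, minus strand), a relative of the small U2AF subunit that recognizes the 3′ splice site, had the largest fall of the canonical introns of the named genes with MS023 at 2 days. Its intron 2 went from 0.471, 0.475, and 0.381 to 0.278, 0.233, and 0.247 (quasi-binomial adjusted p = 0.000108), and it also fell at 4 days by 0.136 and at 7 days by 0.159. Intron 5 of the gene had a ΔΨ of 0.0332 and was not called, and the separate introns differed (interaction adjusted p = 0.00313). With co-treatment at 2 days intron 2 fell by 0.184 while intron 3 rose by 0.156. In IDH3B (chr20:2639169-2641342, minus strand), a subunit of mitochondrial isocitrate dehydrogenase, a 236-base form of the last intron rose by 0.0551 with GSK591 and fell by 0.0569 with MS023 at 2 days, and the canonical introns 6 and 9 rose by 0.0631 and 0.0319 with GSK591 and were not called with MS023.

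GAS5 (chr1:173833214-173835898, minus strand), a non-coding RNA that hosts box C/D snoRNAs in its introns, changed over most of its length and in different directions. With GSK591 at 2 days intron 9 rose from 0.375, 0.316, and 0.323 to 0.484, 0.455, and 0.503 (quasi-binomial adjusted p = 1.12e-05), and intron 10 rose from 0.206, 0.182, and 0.152 to 0.279, 0.244, and 0.228 (adjusted p = 0.000786). Introns 3, 5, and 7 were not called there, with ΔΨ of -0.00369, -0.00547, and -0.00378. The 7 separate introns differed (interaction adjusted p = 0.00196). With MS023 at 2 days 5 of 10 tested forms fell, and intron 8 went from 0.234, 0.229, and 0.235 to 0.118, 0.105, and 0.116 (quasi-binomial adjusted p = 9.43e-14). MS023 lowered 7 forms at 4 days and 5 at 7 days.

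At 7 days of GSK591 8 of 10 forms fell against DMSO at 7 days, and intron 9 went from 0.275, 0.271, and 0.287 to 0.198, 0.248, and 0.214 (quasi-binomial adjusted p = 0.00180). With co-treatment 6 forms fell at 2 days and 9 at 4 days, when intron 9 went from 0.375, 0.316, and 0.323 to 0.136, 0.184, and 0.146 and intron 8 from 0.234, 0.229, and 0.235 to 0.0651, 0.0657, and 0.0649 (adjusted p = 2.91e-16 by the same test). The mean over 7 introns fell by 1.5 ± 0.14 on the log2 odds scale with co-treatment at 4 days (limma adjusted p = 0.00101). The 227-base alternative form of intron 7 rose in all 5 comparisons with GSK591, alone or in co-treatment, and fell with MS023 at 2, 4, and 7 days by 0.0883, 0.107, and 0.0804. Between the DMSO groups GAS5 had a shift of -0.56 ± 0.20 that was not called (limma adjusted p = 0.201).

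C17orf76-AS1 (chr17:16342375-16343498, plus strand), another snoRNA host also known as SNHG29, mixed directions at 1 place. The canonical intron 2, of 770 bases, fell with all 3 treatments at 2 days, from 0.119, 0.112, and 0.105 in DMSO to 0.0863, 0.0745, and 0.0857 with GSK591, to 0.0642, 0.0727, and 0.0706 with MS023, and to 0.0418, 0.0401, and 0.0400 with co-treatment (quasi-binomial adjusted p = 4.61e-05, 2.60e-11, and 1.65e-15). Shorter forms that share its 5′ or 3′ end rose with GSK591 at 2 days, such as the 481-base form, from 0.0724, 0.0652, and 0.0524 to 0.120, 0.106, and 0.0926 (adjusted p = 3.55e-05). With co-treatment at 2 days its introns 1 and 2 gave the largest interaction F of the named genes, 117 (interaction adjusted p = 7.45e-08), with intron 1 at a ΔΨ of -0.00932. Intron 2 also had a lower level in DMSO at 7 days (0.0576) than in DMSO at 4 days (0.112), a difference that was not called.

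In GNB2L1 (RACK1, chr5:180664043-180669285, minus strand), a scaffold protein of the small ribosomal subunit that hosts snoRNAs, the last intron, 7, fell from 0.0317, 0.0249, and 0.0260 to 0.0180, 0.0163, and 0.0238 with GSK591 at 2 days (quasi-binomial adjusted p = 0.00180), while intron 2 rose from 0.0158, 0.0122, and 0.0147 to 0.0160, 0.0196, and 0.0168 (adjusted p = 0.0221). In RPL13 (chr16:89627248-89628147, plus strand), a protein of the large ribosomal subunit, introns 2 and 3 rose by 0.00456 and 0.00347 with GSK591. ARL6IP4 (chr12:123465814-123467166, plus strand), a protein of nuclear speckles, had 4 overlapping forms of its first place, and the canonical intron 2 rose from 0.304, 0.262, and 0.239 to 0.426, 0.405, and 0.390 with GSK591 (adjusted p = 0.000571), whereas its intron 4 had a ΔΨ of -0.00538 and was not called.

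Lists of genes by function gave these counts with GSK591 at 2 days, to be read against the 24% of all introns that rose and the 2.38% that fell. Of 47 tested introns in 9 splicing and mRNA export factors (CIRBP, DDX39A, DDX41, EWSR1, HNRNPH1, PRPF4B, PTBP1, RBM3, and U2AF1L4), 18 rose and 1 fell, with a median ΔΨ of 0.0326. Among chromatin modifiers (HDAC10, HMG20B, ING4, KDM3A, and PRMT5) 6 of 25 introns rose and 0 fell, among transporters (ABCA2, ABCF3, and ATP13A1) 7 of 19 and 0, and among trafficking and proteostasis genes (ANKZF1, AP1G2, and VPS28) 14 of 25 and 2. Genes of the cytoskeleton, mitosis, and centrosome (CDK5RAP3, CENPT, and MYL6) gave 8 of 24 and 1, DNA repair genes (MUTYH and RAD52) 1 of 9 and 0, and NSUN5P1, the only gene of the list on rRNA and tRNA modification, 1 of 6 and 0. The median ΔΨ over all RI was 0.0150.

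Skipped exons of the same genes were counted as a second readout that the rule did not use. At 2 days of GSK591, 245 of 1853 tested exon events in 142 of these genes (13.2%) were called in either direction, against 7.16% of all tested. With MS023 4.44% were called against 3.67%, and with co-treatment 21.2% against 13.8%. Retained forms that span an exon and skipped exons can rest on the same junction reads, and how many do was not tested.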

How the data were processed

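Poly(A)-RNA from 30 A549 libraries was measured. The authors trimmed reads with Trim Galore 0.6.5, aligned them to hg19 with STAR 2.4.2a, and counted events with rMATS (the version differs between the sources used here). The deposited tables hold, for each event, whole-number inclusion and skipping counts of the 3 libraries of a group, with effective lengths. Counts cover junction reads and reads within the intron. The authors' 16 columns of inclusion levels per library and their columns of comparisons (p-values, FDR, level differences) were not used.

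Members and gene lists were chosen with earlier results of these data known. Groups follow the sample labels. Introns with at least 10 reads in every library were tested by a quasi-binomial model of both counts. The dispersion was moderated across introns (limma 3.58.1, R 4.3.3) and held at 1 or above, with Benjamini-Hochberg adjustment over all RI tested. Effective lengths entered Ψ but not the tests or the log odds. An interaction F test asked whether the separate introns of a gene differ. The shift of a gene was tested by limma on the mean log2 odds, with 0.5 added to each count. For both, introns of a gene were kept in order of reads where they did not overlap. Skipped exons were tested as introns were. Annotation was GENCODE, lifted to GRCh37, and sequences were read with samtools 1.23.1. The tests were tried on simulated data with known changes. The intron test recovered 5% to 16.5% of 200 introns changed by 1 log2 unit over the 8 comparisons, and called 0 introns when nothing changed. The interaction test called 0 to 2 genes whose introns changed equally, and the shift test called 0 to 1 genes when nothing changed.

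Genes were named by a rule: the 8 with the most introns; at 2 days and per treatment the 3 with the highest share of introns called higher and the 3 lower (of those with 5 or more tested), the 3 with the most introns called in their minority direction, and the 2 with the largest interaction F; and GAS5, ANKZF1, NOP2, HNRNPH1, CHTOP, and SNRPB where members. PRPF4B falls outside it and was named after its values were seen. Alternatives were another test, read minimums of 20 and 1, overlapping introns included, introns at least 500 bases apart, 2 added to counts, genes with 8 or more introns, no length correction, and leaving out each library. The dispersion of each intron and canonical introns alone were added after seeing the data. The counts of 1 gene list are not reported here.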

Additional observations from a re-analysis of the deposited data

Results flagged for a closer look

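Introns that were called in both directions at different times of the same inhibitor were sought among 625 series of 1 intron and 1 inhibitor. Both ends passed the quasi-binomial test in those below, but the difference between the times was not tested, and the 7-day values rest on another DMSO group than the earlier ones.

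With GSK591, 3 GAS5 introns had a higher Ψ than DMSO at 2 days and a lower one at 7 days. ΔΨ was 0.143 and -0.0573 for intron 9, 0.0801 and -0.0718 for intron 8, and 0.0704 and -0.0449 for intron 10. In C17orf76-AS1 the 166-base form had a ΔΨ of 0.0622 at 2 days and -0.0880 at 7 days, and the 481-base form 0.0428 and -0.00786. GNB2L1 intron 2 changed by 0.00325 and -0.00610. RBM3 intron 3 had a ΔΨ of 0.0100 at 2 days and 0.0228 at 4 days, against -0.0127 at 7 days.

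The form over SIRT7 introns 5 and 6 went the other way with GSK591, with a ΔΨ of 0.145 at 7 days and -0.189 at 2 days. With MS023, RPL13 intron 2 had a ΔΨ of 0.00242 at 2 days and -0.00339 at 7 days.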

How the results depend on the processing

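No paired analysis was possible because the counts of a group carry no replicate numbers. The choice of the row with the fewest reads per intron was not run, since each table lists an intron in at most 1 row. No count or median changed its direction. The share of pairs with the same sign within genes, set against that between genes over the same introns, was higher in all 8 comparisons with overlapping introns included, with a minimum of 20 reads, and in canonical introns, in 7 of 8 with introns at least 500 bases apart (57.5% against 57.6% with MS023 at 4 days), in 5 of 8 in genes with 8 or more introns (lower with MS023 at 2, 4, and 7 days), and in 46 of 48 values without 1 library. The counts below are of member introns or genes.

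With limma on log2 odds, 131 and 158 introns were called for GSK591 at 2 and 7 days, and 0 for MS023 at 2, 4, and 7 days and between the DMSO groups, with 103, 133, 151, and 133 at an unadjusted p under 0.05. A minimum of 20 reads gave 16 called introns between the DMSO groups. With overlapping introns included, 15, 17, and 22 genes had introns that differ with MS023 at 2, 4, and 7 days, and the mean shifted in 17, 47, and 22 genes with GSK591 at 2, 4, and 7 days and in 28 with co-treatment at 2 days. With introns at least 500 bases apart, the introns differed in 25 genes for GSK591 at 2 days, in 3 for MS023 at 7 days, and in 12 between the DMSO groups. The dispersion of each intron, added after seeing the data, gave 13, 17, and 26 such genes with MS023 at 2, 4, and 7 days. With 2 added to each count, the mean shifted in 1 gene with MS023 at 7 days and in 2 between the DMSO groups.

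The share of pairs with the same sign, with overlapping introns included, was 61.5%, 64.7%, and 60.1% with GSK591 at 2, 4, and 7 days, 56.7% and 57.6% with MS023 at 4 and 7 days, and 62.4% and 61.7% with co-treatment at 2 and 4 days. With introns at least 500 bases apart it was 64.1% and 62.8% for GSK591 at 2 and 7 days and 57.5% for MS023 at 4 days. In canonical introns alone, an alternative added after seeing the data, it was 75.4%, 78.7%, and 70.7% with GSK591, 66.7% with MS023 at 4 days, 76.8% and 76.5% with co-treatment, and 54.7% between the DMSO groups. A minimum of 20 reads gave 68.0% with GSK591 at 7 days. In genes with 8 or more introns it was 73.1% for GSK591 at 7 days, 59.8% and 65.6% for MS023 at 4 and 7 days, 75.4% with co-treatment at 4 days, and 53.4% between the DMSO groups. Without the length correction the median ΔΨ was -0.00501 for MS023 and 0.0198 for co-treatment, both at 2 days. The cause of these differences was not tested.

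Leaving out 1 library of either group leaves fewer samples and gave these ranges. Introns called numbered 137 to 197, 245 to 263, and 145 to 181 with GSK591 at 2, 4, and 7 days, 1 to 5, 3 to 10, and 6 to 29 with MS023, 203 to 229 and 264 to 292 with co-treatment, and 0 to 3 between the DMSO groups. Genes whose introns differ numbered 29 to 39, 52 to 59, and 39 to 46 with GSK591, 2 to 8, 4 to 9, and 7 to 17 with MS023, 44 to 50 and 55 to 66 with co-treatment, and 5 to 19 between the DMSO groups. Genes with a shift numbered 14 to 27, 44 to 51, and 16 to 20 with GSK591, 0 to 0, 0 to 0, and 0 to 1 with MS023, 34 to 38 and 48 to 56 with co-treatment, and 0 to 0 between the DMSO groups. The share of pairs with the same sign was 67.4% to 71.5%, 68.8% to 74.2%, and 62.4% to 64.6% with GSK591, 55.1% to 59.8%, 54.5% to 62.9%, and 58.4% to 63.9% with MS023, 66.1% to 69.9% and 68.0% to 70.7% with co-treatment, and 49.5% to 53.1% between the DMSO groups. Depth limits genes with few reads per intron, such as NPRL2, DGKA, and CCDC78.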
